A study of Mus musculus with 12 samples.

Results

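The comparison set established mouse embryonic stem cells against embryoid bodies that had formed from lung endothelial cells without CD47, over all genes that the array names. All probe sets with 1 gene symbol were taken, and the brightest was kept for a gene with several, which left 19938 genes of 19938 in the series. The ESC group was the line V6.5, kept in medium with 15% fetal bovine serum and the self-renewal cytokine LIF at 1000 IU/ml. No strain, genotype or treatment is labelled for it, and it is a single line. The null_EB group came from C57Bl/6 mice with the genotype CD47 null: endothelial cells of the lung, after 6 months of passages, were plated in basal endothelial medium from which serum was left out, and free cell aggregates appeared after 24 to 36 h. Age and sex are given for neither group. The series has 2 further groups, endothelial cells from the lungs of C57Bl/6 mice, either wild type (WT_EC) or CD47 null (null_EC), both grown in complete endothelial medium. They entered no test here, and their levels are given beside those of ESC and null_EB. Each group had 3 arrays. The labels do not say whether these were separate cultures or animals, so the p-values measure the spread between these samples, which may be technical. Cell type, line, medium, serum, LIF and growth form all differed between ESC and null_EB together and cannot be told apart.

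Mouse embryonic stem cells are held in a self-renewing state by a circuit of transcription factors around Oct4 (the product of Pou5f1), Sox2 and Nanog, which activate each other's genes and those of many partners. LIF supports this state through Stat3. The cells cycle fast with a short G1 phase, hold an epithelial form through E-cadherin, and express a set of germline genes. An embryoid body grown from stem cells loses this circuit as germ layers form, whereas here the name stands for aggregates that arose from a somatic culture. CD47 is a surface receptor for thrombospondin-1 and for SIRP alpha.

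Signals are on the log2 scale, a group is given as its mean ± SD over 3 arrays, and a difference is ESC minus null_EB with its standard error (SE). Genes count as called where limma, fitted to these 6 arrays, gave a Benjamini-Hochberg adjusted p under 0.05 over all genes. Of the 19938 genes, 12306 were called (61.7%), 5597 of them higher in ESC (28.1%) and 6709 lower (33.6%). Since most genes were called, counts are given below for genes called and at least 2-fold different, which were 3025 (15.2%), with 1734 higher in ESC (8.7%) and 1291 lower (6.48%). The shares of all genes, 8.7% higher and 6.48% lower, are the background for every list count below, and some lists lie near them. At 4-fold there were 857 (4.3%), 602 higher and 255 lower, and at 32-fold 26 higher and 6 lower. The median difference over all genes was -0.078. A scaling on 16 housekeeping genes lowered every difference by 0.254, the median to -0.333, and the share of calls that were higher in ESC from 45.5% to 22.7%. With it, 1271 genes were at least 2-fold higher and 1970 at least 2-fold lower, so the balance of the counts depends on the scaling, while no gene named with a 2-fold difference changes direction.

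**Figure D1:**
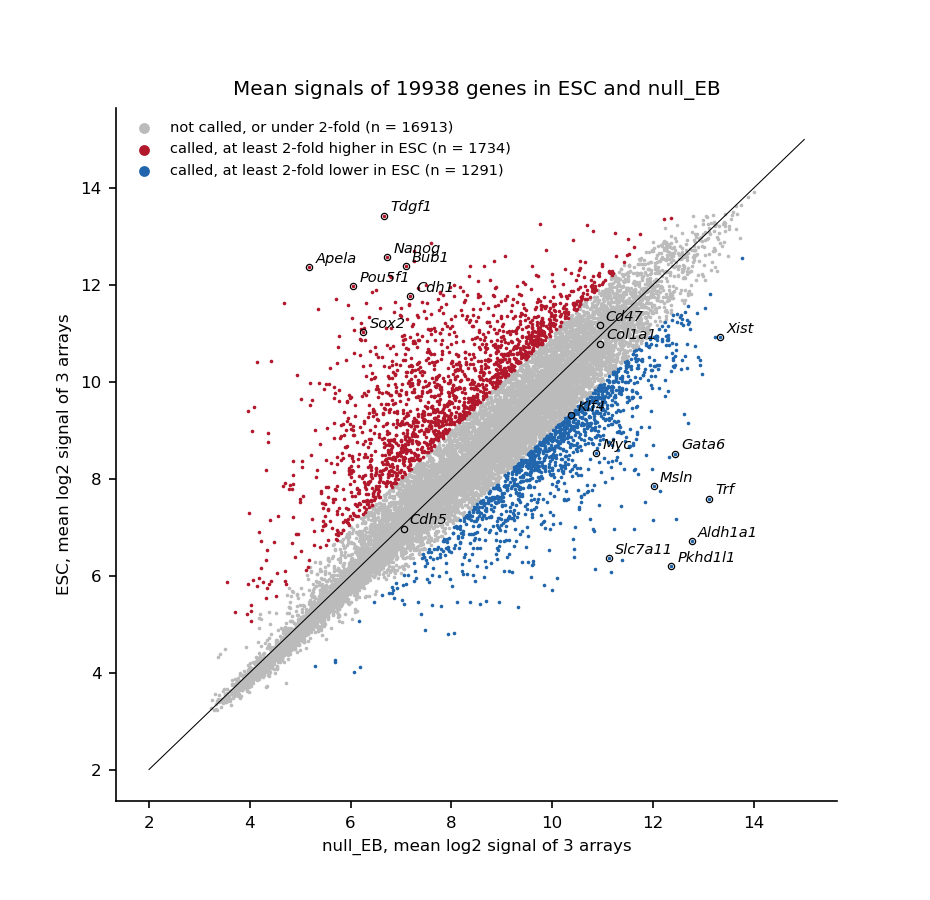
Mean log2 signal of 3 ESC arrays (vertical axis) against 3 null_EB arrays (horizontal axis) for 19938 genes, 1 point each, with the line of equal signal. The 1734 genes called and at least 2-fold higher in ESC are red, the 1291 at least 2-fold lower are blue, and circled points carry gene names. The pluripotency genes lie far above the line and mesothelial genes such as Msln far below it.

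Within a group the arrays were alike: pairs of arrays correlated across genes at 0.9937 to 0.9962 in ESC and 0.9942 to 0.9964 in null_EB, against 0.9259 to 0.9325 between the groups. Genes are not independent replicates in these values. Over genes, the SD among 3 arrays had a median of 0.0847 in ESC and 0.077 in null_EB. No detection calls were used, and a gene is called low in signal where both group means lie under 8.02, the median value on the 6 arrays, as for 8946 genes. Cd47 itself, the targeted gene, read 11.23, 10.96 and 11.33 on the ESC arrays and 10.99, 10.89 and 10.93 on the null_EB arrays. The groups overlapped, with ESC 3 highest (log2 difference 0.24, SE 0.0926, adjusted p = 0.0437). The call was lost without any 1 of the 3 null_EB arrays, ESC 1 or ESC 3 (limma adjusted p from 0.0503 to 0.161) and with all 12 arrays in 1 fit (0.499). The sign turned with the housekeeping scaling (-0.02) and in a second, dimmer probe set (-0.28, limma adjusted p = 0.00346). Where in the gene the probe sets lie is not stated, so they do not check the genotype.

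The labelled cell types were set against marker genes, and several defining endothelial markers were low on the null_EB arrays. VE-cadherin (Cdh5), the junction protein of endothelium, read 7.02, 6.96 and 6.94 on the ESC arrays and 7.01, 7.09 and 7.04 on the null_EB arrays. Esam, another endothelial junction protein, was at 7.05 ± 0.131 in ESC and 7.07 ± 0.0393 in null_EB, and the VEGF receptor gene Kdr at 6.91 ± 0.073 in ESC and 7.34 ± 0.0718 in null_EB, below its 10.70 in null_EC and 8.82 in WT_EC. On the WT_EC arrays Cdh5 read 9.1, 6.85 and 9.52 and Esam 10.34, 6.97 and 9.53, against means of 7.16 and 7.31 in null_EC. Cdh5, Esam and Kdr lie below the median signal in both ESC and null_EB. Flt1, another VEGF receptor gene, does not: it read 9.18, 9.11 and 9.23 on the ESC arrays and 9.04, 8.97 and 9.08 on the null_EB arrays, not called, with a mean of 8.46 in null_EC. Of 53 endothelial identity genes, 17 were above the median signal on every null_EB array and 21 on every ESC array, against 18 in null_EC and 17 in WT_EC. Their median level was 7.61 to 7.75 on the null_EB arrays, 7.71 to 7.78 on the ESC arrays, and 8.09, 7.63 and 8.31 on the WT_EC arrays. Pairs of WT_EC arrays correlated at only 0.9544 to 0.9677. A single low array, such as WT_EC 2 for Cdh5 and Esam, takes a gene out of such a count. Between ESC and null_EB 8 of the 53 genes were at least 2-fold higher in ESC and 8 lower, with a median difference of 0.05 that became -0.21 with the housekeeping scaling. The adhesion molecule Pecam1 (4.92-fold), which embryonic stem cells also make, the angiopoietin receptor Tek (3.59-fold) and Mcam (5.35-fold) were higher in ESC. The neuropilins Nrp2 (4.02-fold) and Nrp1 (3.14-fold), co-receptors of VEGF and semaphorins, and the phosphatase Ptprb (3.97-fold) were lower.

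What the null_EB arrays did carry were several genes of mesothelium, the lining of lung and body cavities. Mesothelin (Msln) read 7.85, 7.9 and 7.78 on the ESC arrays and 12.08, 11.96 and 11.98 on the null_EB arrays. The uroplakin Upk3b read 7.83, 7.64 and 7.8 on the ESC arrays and 12.25, 12.08 and 12.05 on the null_EB arrays. In both cases every null_EB array stood far above every ESC array, 17.9-fold for Msln (log2 difference -4.17, SE 0.0674, adjusted p = 5.75e-12) and 20.8-fold for Upk3b (log2 difference -4.38, SE 0.0802, adjusted p = 1.37e-11). Upk1b (28.8-fold), the basonuclin Bnc1 (18.9-fold), Gpm6a (39.3-fold) and the transcription factor Wt1 (7.8-fold) were lower in ESC too. Their levels were also high in null_EC, of the same genotype, and in the wild type cells: the mean of Upk3b was 13.05 in null_EC and 11.95 in WT_EC, and that of Wt1 11.42 and 10.81. The WT_EC arrays spread more, with Upk3b at 11.06, 12.28 and 12.5. Of 28 lung epithelial and mesothelial genes 10 were at least 2-fold lower in ESC and 0 higher, and 16 were low in signal in both groups. By less than 2-fold, 3 were called higher in ESC. These were Krt7 (9.08 against 8.35) and, at low signal, Aldh1a2 (6.33 against 5.79) and Muc1 (7.22 against 6.95). Fewer mesothelial cells and less of their RNA per cell cannot be told apart on bulk arrays.

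Fibroblast and smooth muscle genes were high in both groups, the ESC arrays included. Col1a1, the main chain of fibrillar collagen, read 10.76, 11.05 and 10.56 on the ESC arrays and 11.05, 10.92 and 10.87 on the null_EB arrays, which overlap (log2 difference -0.16, SE 0.112, adjusted p = 0.241). Smooth muscle actin (Acta2) was at 12.58 ± 0.0427 in ESC and 12.67 ± 0.213 in null_EB, and vimentin (Vim) at 13.11 ± 0.0366 in ESC and 13.42 ± 0.0385 in null_EB. With the housekeeping scaling Col1a1 (-0.41) and Acta2 (-0.35) were called lower in ESC. Periostin (Postn), a matrix protein of mesenchymal cells, read 11.73, 11.48 and 11.64 on the ESC arrays and 6.34, 6.37 and 6.19 on the null_EB arrays, 39.9-fold higher in ESC, and the fibroblast surface protein Thy1 was 3.85-fold higher. Decorin (Dcn, 4.89-fold), the caveolin Cav2 (2.87-fold), Twist1 (2.64-fold) and the collagen receptor Ddr2 (2.35-fold) were lower in ESC. Of 39 genes of this list, 9 were at least 2-fold higher and 5 lower, and 30 were above the median signal on every ESC array and 24 on every null_EB array, with list medians of 9.85 to 9.90 and 9.45 to 9.92. Sex-linked genes differed as well. The Y-linked genes Uty and Eif2s3y read 9.69, 9.44 and 9.77 and 9.55, 8.94 and 9.67 on the ESC arrays and had means of 5.02 and 3.96 in null_EB. Xist, the RNA that coats the inactive X chromosome of female cells, was 11.01, 10.72 and 11.06 on the ESC arrays and 13.34, 13.32 and 13.33 on the null_EB arrays. The ESC arrays thus held Y-linked transcripts together with an Xist signal above the median, 5.29-fold below that of null_EB. The labels name no second cell type in the stem cell culture, and the part of these mesenchymal and sex-linked signals in the differences below was not tested. Of 24 immune markers 21 were low in signal in both groups, with Ptprc, the leukocyte common antigen, at 6.28 against 6.41. The other 3 were the lysosomal protein gene Cd68 (9.99 against 10.21, not called), Laptm5 (9.62 against 6.82, 6.96-fold higher in ESC) and the tetraspanin gene Cd53 (7.07 against 10.02, 7.73-fold lower).

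**Figure D2:**
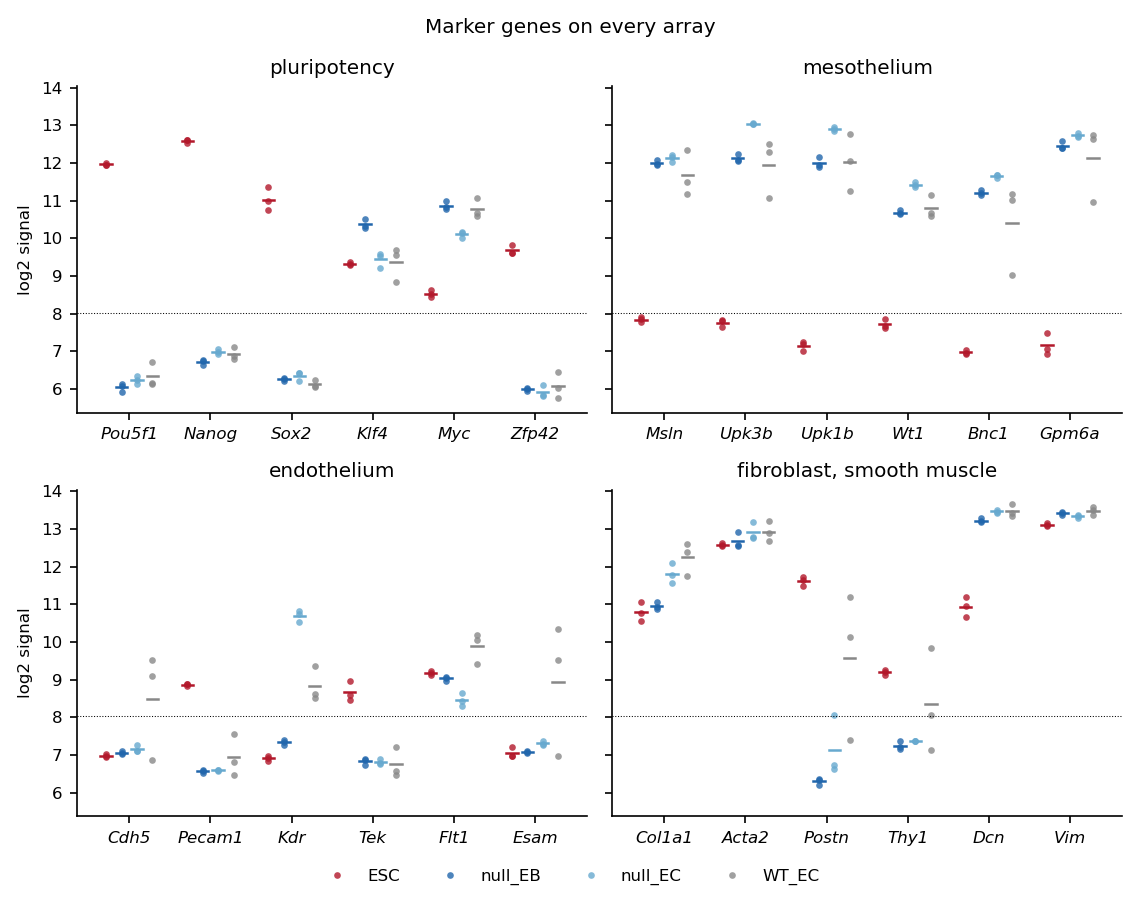
Log2 signal (vertical axis) of 24 marker genes on every array, in 4 panels, with 3 points and a bar for the mean for ESC, null_EB, null_EC and WT_EC; the dotted line is the median signal of 8.02. Pou5f1, Nanog, Sox2 and Zfp42 are high on the ESC arrays alone, whereas Klf4 and Myc are higher on the null_EB arrays. The mesothelial genes shown are high in every group but ESC, and the endothelial genes Cdh5 and Esam are low in both ESC and null_EB.

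The pluripotency circuit was among the largest differences. Pou5f1 read 11.94, 12.01 and 11.96 on the ESC arrays and 5.93, 6.14 and 6.08 on the null_EB arrays. That is 60.4-fold higher in ESC (log2 difference 5.92, SE 0.0725, adjusted p = 1.69e-12). Nanog read 12.54, 12.6 and 12.6 on the ESC arrays and 6.65, 6.77 and 6.74 on the null_EB arrays, 58-fold higher (log2 difference 5.86, SE 0.0648, adjusted p = 1.24e-12). Sox2 read 10.98, 11.35 and 10.75 on the ESC arrays and 6.22, 6.26 and 6.28 on the null_EB arrays, 27.3-fold higher (log2 difference 4.77, SE 0.124, adjusted p = 1.3e-10). Every ESC array was far above every null_EB array for all 3, and the null_EB means of 6.05, 6.72 and 6.25 stood beside 6.25, 6.99 and 6.35 in null_EC. Among the partners, the orphan receptor gene Esrrb (10.33 against 6.67, 12.7-fold), the stem cell marker Rex1 (Zfp42; 9.68 against 6.00, 12.8-fold) and the chromatin factor Utf1 (11.89 against 6.50, 41.9-fold) were higher in ESC. Of 23 naive pluripotency factors, 16 were at least 2-fold higher in ESC and 1 lower, with a median difference of 2.23, where 8.7% and 6.48% of all genes were.

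Other factors ran the opposite way. Klf4, a Krüppel-like factor of the reprogramming set, read 9.31, 9.29 and 9.37 on the ESC arrays and 10.52, 10.33 and 10.27 on the null_EB arrays. It was 2.07-fold lower in ESC without overlap (log2 difference -1.05, SE 0.0768, adjusted p = 4.12e-07). Without null_EB 1 the difference was -0.98, less than 2-fold. Myc, the proto-oncogene of that set, read 8.43, 8.64 and 8.53 on the ESC arrays and 10.98, 10.79 and 10.83 on the null_EB arrays, 5.04-fold lower in ESC (log2 difference -2.33, SE 0.0801, adjusted p = 1e-09). Stat3, which carries the LIF signal, was 1.87-fold lower (10.49 against 11.39), and Klf2, the factor nearest to Klf4, was 1.41-fold higher (9.40 against 8.90). Klf2 was not called with the housekeeping scaling (log2 difference 0.25). Of the 4 classical reprogramming factors, Klf4 and Myc were higher in null_EB and Pou5f1 and Sox2 in ESC. Mycn, the Myc family member of embryonic cells, was 8.28-fold higher in ESC (10.87 against 7.82).

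Oct4 and Sox2 bind DNA side by side, at an octamer-like element next to a SOX element, so the promoters of the circuit were searched for the letters ATGCAAA and CATTGT on both strands. The RefSeq table (GRCm38.p6) gives 250 bases before and 50 after the start. The first promoter listed for each of 27025 genes was taken, 19 of them of the 23 naive factors. ATGCAAA was in 4 of those 19 (Nanog, Sox2, Zfp42 and Zfp296) and in 4.59% of all promoters, and CATTGT in 2 of 19 and in 12.8% of all. The promoter of Pou5f1 held neither. The pair of CATTGT, any 1 base and ATGCAAA, in this order on either strand, was in 1 of the 27025, that of Nanog. That promoter and the promoter of Sox2 are shown, 5′ to 3′ in the direction of the gene, since both genes belong to the core of the circuit and hold the letters searched, in capitals:
Nanog, chr6:122707239-122707538, plus strand: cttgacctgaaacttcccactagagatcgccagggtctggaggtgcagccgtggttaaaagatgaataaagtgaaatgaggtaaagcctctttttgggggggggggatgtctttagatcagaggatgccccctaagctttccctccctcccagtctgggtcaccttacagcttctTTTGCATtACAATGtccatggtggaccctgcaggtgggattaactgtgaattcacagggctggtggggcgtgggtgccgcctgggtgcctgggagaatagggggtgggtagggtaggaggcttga
Sox2, chr3:34649745-34650044, plus strand: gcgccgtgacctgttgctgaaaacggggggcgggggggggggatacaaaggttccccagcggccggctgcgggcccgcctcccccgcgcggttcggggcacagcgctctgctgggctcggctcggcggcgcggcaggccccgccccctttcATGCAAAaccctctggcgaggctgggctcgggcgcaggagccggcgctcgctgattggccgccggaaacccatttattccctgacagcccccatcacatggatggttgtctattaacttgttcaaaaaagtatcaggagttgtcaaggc
Read on the plus strand, the Nanog window holds the reverse complements, TTTGCAT from base -75 and ACAATG from base -67 relative to the start. A match of letters is a description and not a binding site. ATGCAAA was in 3.81% of the 1337 promoters found for genes at least 2-fold higher in ESC and in 3.15% of the 984 for genes at least 2-fold lower. Among the 13 promoters found for the embryonic stem cell effector genes described below, ATGCAAA was in 0 and CATTGT in 2.

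Effector genes of the stem cell state followed. Cripto (Tdgf1), the co-receptor of Nodal, read 13.48, 13.3 and 13.5 on the ESC arrays and 6.62, 6.66 and 6.72 on the null_EB arrays, 109-fold higher in ESC (log2 difference 6.76, SE 0.074, adjusted p = 1.24e-12). Dppa5a (43.5-fold), an RNA-binding protein of early embryos, Fbxo15 (37.3-fold) and Dppa2 (32.3-fold) were higher too. Fgf4, the autocrine growth factor of these cells, was 11.2-fold higher (11.06 against 7.57), and the let-7 antagonist Lin28a 5.33-fold (9.98 against 7.56). Dppa3, which protects the oocyte's methylation marks in the zygote, was 3.69-fold higher (7.95 against 6.07). Of 24 effector genes, 23 were at least 2-fold higher in ESC and 0 lower, with a median of 2.94. Of 16 genes of the primed epiblast and primitive streak, 6 were higher, 1 lower and 9 low in signal in both groups. Otx2, which marks cells leaving the naive state, read 11.59, 11.59 and 11.57 on the ESC arrays and 5.85, 5.97 and 6.02 on the null_EB arrays, 49.7-fold higher in ESC, whereas Fgf5 was 2.18-fold higher at a low level (8.38 against 7.25) and the endoderm factor Foxa2 2.48-fold lower (7.19 against 8.50). Genes of the 2-cell-like state were low in signal in all 7 measured cases, with 0 at least 2-fold different.

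Beyond the circuit, the largest difference of all was Apela, a peptide hormone of the apelin receptor made by early embryos, which read 12.36, 12.36 and 12.36 on the ESC arrays and 5.06, 5.15 and 5.34 on the null_EB arrays, 144-fold higher (log2 difference 7.17, SE 0.0794, adjusted p = 1.24e-12). Among the 15 genes with the largest increase were also the zinc finger genes Zfp980 (124-fold), Zfp640 (77.4-fold) and Zfp979 (42-fold), which have close relatives whose transcripts the probes may share. The adaptor Bex1 (71-fold) and the amino acid transporter Slc38a4 (42.6-fold) were among them too. At the other end stood Pkhd1l1, a large membrane protein of the fibrocystin family, with 6.37, 6.11 and 6.09 on the ESC arrays and 12.41, 12.36 and 12.31 on the null_EB arrays, 72.1-fold lower in ESC (log2 difference -6.17, SE 0.0844, adjusted p = 2.17e-12). Retinaldehyde dehydrogenase (Aldh1a1), which makes retinoic acid, was 66.4-fold lower (6.71 against 12.77), and transferrin (Trf), the iron carrier, 46.1-fold lower (7.59 against 13.12). The receptors Olr1 (25.2-fold), for oxidised lipoprotein, and Plxna4 (19.9-fold), for semaphorins, the phosphatase Ptprq (33.4-fold), the scramblase Plscr2 (26.3-fold) and Scel (19.7-fold) made up more of the 15 largest decreases. Aldh1a1, Trf and Pkhd1l1 were as high in null_EC, at 13.10, 13.41 and 12.43. Prl2c5, of the proliferin family with near-identical copies, was not: it read 11.12, 11.15 and 11.2 in null_EB, 7.46, 7.7 and 7.79 in null_EC and 6.1, 6.03 and 6.08 in ESC.

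Cell division genes were higher in ESC almost throughout their lists. Of 47 DNA replication genes, 45 were at least 2-fold higher in ESC and 0 lower (median 1.94), and of 44 genes of mitosis and the spindle checkpoint 40 were higher and 0 lower (median 3.19, 39 at least 4-fold). Bub1, a checkpoint kinase, read 12.49, 12.25 and 12.42 on the ESC arrays and 7.55, 6.8 and 6.92 on the null_EB arrays, 39.3-fold higher (log2 difference 5.30, SE 0.161, adjusted p = 4.14e-10). The mitotic motors Kif2c (21.6-fold) and Kif20a (16.9-fold), the kinases Ttk (17-fold) and Aurkb (9.41-fold) and, among replication genes, the origin protein Orc1 (13.6-fold), Gins1 (11.1-fold) and the helicase subunits Mcm5 (9.78-fold) and Mcm2 (3.82-fold) were higher too. The sliding clamp Pcna read 12.91, 12.91 and 13.04 on the ESC arrays and 11.52, 11.5 and 11.5 on the null_EB arrays, 2.72-fold higher. List medians of the mitosis genes were 11.20 to 11.25 on the ESC arrays, 7.69 to 8.10 on the null_EB arrays, 7.48 to 7.84 in null_EC and 8.90 to 9.36 in WT_EC.

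The regulators of G1 split. Cyclin E1 (Ccne1), which drives entry into S phase, was 13.8-fold higher in ESC (11.95 against 8.17), and the E2F repressors E2f8 (8.67-fold) and E2f7 (4.53-fold) were higher. The CDK inhibitor Cdkn2c (3.78-fold), the pocket protein Rbl2 (2.67-fold) and cyclin D2 (Ccnd2, 2.25-fold) were lower. Cdkn2a, a marker of senescence, was 1.24-fold higher at a low signal (7.51 against 7.20). The Cdkn2a call was lost with the housekeeping scaling (log2 difference 0.05) and with all 12 arrays in 1 fit. In all, 7 of 26 were at least 2-fold higher and 3 lower. DNA repair genes resembled replication genes: 25 of 37 were higher and 0 lower (median 1.72). The Fanconi genes Fancd2 (15.6-fold) and Fanci (15.1-fold), the breast cancer gene Brca1 (12.2-fold) and the helicase Blm (11.1-fold) led, and the mismatch repair gene Msh6 was 4.89-fold higher (11.47 against 9.18). Telomere genes were higher in 8 of 17 and lower in 0, with the reverse transcriptase Tert at 9.86 against 8.68 (2.26-fold) and dyskerin (Dkc1) 5.22-fold higher. Of 32 p53 targets and apoptosis genes, 6 were higher and 5 lower (median 0.08, with the housekeeping scaling -0.17): the survival gene Bcl2 was 2.54-fold lower and the death gene Pmaip1 2.58-fold higher, and Mdm2 was not called (11.45 against 11.63).

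**Figure D3:**
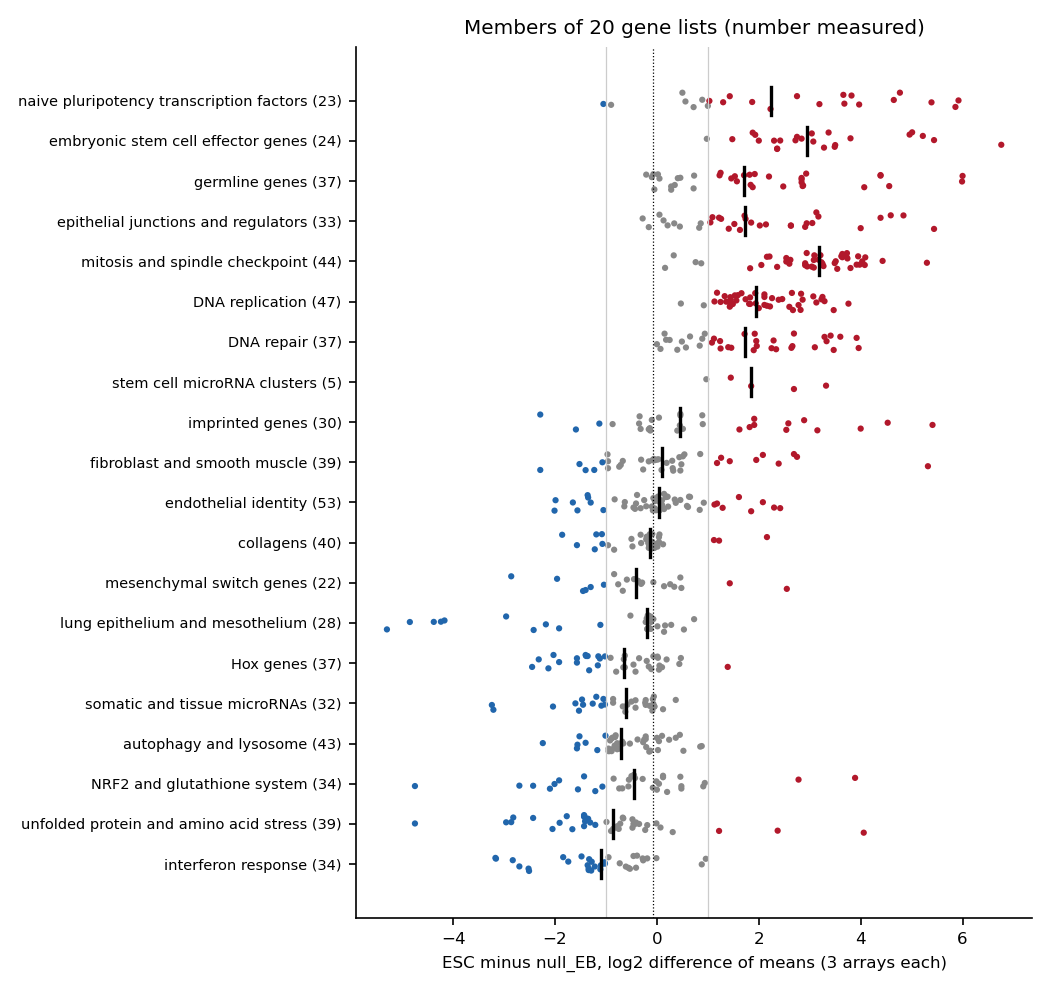
Log2 difference, ESC minus null_EB, of every measured member of 20 gene lists, 1 point per gene, with the list's median as a black bar; grey vertical lines mark 2-fold, and the dotted line the median over all genes. Members called and at least 2-fold different are red (higher) or blue (lower), and the median bars run from 3.19 for mitosis genes to -1.11 for interferon genes.

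Epithelial genes were higher in ESC, and several mesenchymal regulators in null_EB. E-cadherin (Cdh1) read 11.8, 11.73 and 11.78 on the ESC arrays and 7.12, 7.15 and 7.27 on the null_EB arrays, 24.1-fold higher in ESC (log2 difference 4.59, SE 0.0673, adjusted p = 3.16e-12), and N-cadherin (Cdh2) read 9.11, 8.93 and 9.13 on the ESC arrays and 12.03, 11.89 and 11.84 on the null_EB arrays, 7.27-fold lower (log2 difference -2.86, SE 0.0808, adjusted p = 2.35e-10). Epcam (43.6-fold), the splicing regulator Esrp1 (28.6-fold) and the claudin Cldn6 (20.9-fold) were higher, as were 24 of 33 epithelial genes at 2-fold with 0 lower. Of 22 mesenchymal switch genes, 6 were lower and 2 higher (median -0.41). The repressors of E-cadherin Zeb2 (3.89-fold) and Snai2 (2.73-fold) and the factor Twist1 (2.64-fold) were lower in ESC, whereas tenascin (Tnc, 5.85-fold) and Prrx1 (2.7-fold) were higher. The fibroblast genes that were high on the ESC arrays stand beside these values, and their part was not tested.

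Matrix and adhesion genes differed in both directions. Among 40 collagens 6 were lower in ESC and 3 higher, together 22.5%, against 15.2% of all genes. The lower ones included the basement membrane chains Col4a1 (2.33-fold), Col4a2 (2.28-fold), Col4a5 (2.97-fold) and Col4a6 (3.63-fold), while Col12a1 was 4.46-fold higher. Of 49 other matrix genes 10 were higher and 4 lower: laminin alpha 1 (Lama1, 4.13-fold), the embryonic basement membrane chain, Fbln1 (5.23-fold) and the hyaluronan synthase Has2 (4.76-fold) were higher, and decorin (Dcn) was 4.89-fold lower (10.93 against 13.22). The list's median of 0.18 became -0.08 with the housekeeping scaling. Of 24 integrins 4 were lower, with Itga10 (4.79-fold) and Itgb8 (4.46-fold) first, and 2 higher, the laminin receptor chain Itga6 (2.51-fold) and Itga4 (3.45-fold). Proteases and inhibitors counted 12 lower and 6 higher of 34. The membrane protease Mmp14 (3.56-fold) and the inhibitors Timp3 (4.4-fold) and Timp2 (4.25-fold) were lower, and Adam23 (21.1-fold) and Mmp3 (5.11-fold) higher. Among 28 YAP and SRF targets 4 were higher and 5 lower, and the classical target Ccn2 was 2.54-fold higher in ESC (12.60 against 11.26).

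Germline genes, which embryonic stem cells share with early germ cells, were higher in ESC in 24 of 37 cases at 2-fold and lower in 0. Sycp3, of the meiotic synaptonemal complex, read 10.29, 10.38 and 10.61 on the ESC arrays and 4.41, 4.28 and 4.58 on the null_EB arrays, 64-fold higher (log2 difference 6.00, SE 0.1, adjusted p = 7.17e-12). Tdrd12 (63.7-fold), of the piRNA pathway, Meioc (23.6-fold), Mael (21-fold) and the germ cell helicase Ddx4 (16.8-fold) were far above null_EB, and Dazl was 4.6-fold higher (8.17 against 5.97). The list's median was 1.71, and 17 of its members were low in signal in both groups. The DNA methylation machinery differed by paralog. The methylcytosine oxidase Tet1 read 12.45, 12.5 and 12.52 on the ESC arrays and 7.25, 7.2 and 7.31 on the null_EB arrays, 37.8-fold higher (log2 difference 5.24, SE 0.0639, adjusted p = 1.69e-12), whereas its relative Tet3 was 3.27-fold lower (7.84 against 9.55). The de novo methyltransferase Dnmt3b (7.87-fold), its cofactor Dnmt3l (16.8-fold) and the maintenance factor Uhrf1 (5.58-fold) were higher, and Mbd2 (2.87-fold) lower, which gave 7 higher and 3 lower of 17.

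Polycomb and SWI/SNF genes differed by subunit, with 11 of 33 at least 2-fold higher in ESC and 6 lower. Jarid2 (10.2-fold), Phf19 (4.23-fold), Mtf2 (4.24-fold) and the methyltransferase Ezh2 (3.45-fold) of Polycomb complex PRC2 and Phc1 (3.82-fold) and Cbx7 (2.43-fold) of PRC1 were higher. The PRC1 gene Bmi1 (3.43-fold) and the ATPase of differentiated cells Smarca2 (3.76-fold) were lower. Of 30 imprinted genes, expressed from the copy of a single parent, 11 were higher and 3 lower. The maternally expressed RNA Meg3 (8.87-fold), Mest (23.2-fold), Phlda2 (16-fold) and the growth factor Igf2 (7.4-fold) were higher in ESC. Igf2 read 11.33, 11.13 and 11.26 on the ESC arrays and 8.36, 8.23 and 8.47 on the null_EB arrays, against a mean of 10.89 in null_EC, and Airn was 3.02-fold lower in ESC.

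MicroRNA genes were measured by probe sets named for the hairpin genes, in a protocol for long RNA, so the signals stand for precursors or host transcripts and not for mature microRNAs. Stem cells make the miR-302 cluster, and differentiated cells the let-7, miR-99 and miR-10 families. Mature sequences in RefSeq (GRCm38.p6) matched 35 of the 37 hairpins measured. Those of the miR-302 cluster and of 3 somatic families with at least 2 hairpins lower in ESC are shown, to let shared seeds be compared, with the seed, bases 2 to 8, in capitals, since it selects the targets. Mir302a is not shown, for lack of its 3p sequence in the table. Higher in ESC:
miR-302b-3p: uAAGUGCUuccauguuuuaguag
miR-302d-3p: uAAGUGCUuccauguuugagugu
miR-302c-3p: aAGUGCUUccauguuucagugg
miR-367-3p: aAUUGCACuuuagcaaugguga
Lower in ESC:
let-7c-5p: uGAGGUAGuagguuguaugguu
let-7e-5p: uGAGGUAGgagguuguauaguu
miR-99a-5p: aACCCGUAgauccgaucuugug
miR-100-5p: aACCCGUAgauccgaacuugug
miR-10a-5p: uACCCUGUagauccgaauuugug
miR-10b-5p: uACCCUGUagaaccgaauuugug
miR-302b-3p and miR-302d-3p share the seed AAGUGCU, and miR-302c-3p, listed with its first base 1 position later, has AGUGCUU. let-7c-5p and let-7e-5p share GAGGUAG, miR-99a-5p and miR-100-5p share ACCCGUA, and miR-10a-5p and miR-10b-5p share ACCCUGU.

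Mir302b read 7.26, 7.03 and 7.61 on the ESC arrays and 3.85, 4.12 and 3.97 on the null_EB arrays, 9.98-fold higher in ESC (log2 difference 3.32, SE 0.129, adjusted p = 2.62e-09). Mir302c was 6.45-fold higher, Mir302a 3.62-fold and Mir302d 2.74-fold, and Mir367 1.96-fold, with ESC 3 the highest array of each. All 5 stayed below the median signal in both groups, although no array of the groups overlapped. On the other side, Mirlet7c-1 read 4.9, 4.84 and 4.73 on the ESC arrays and 8.42, 7.85 and 7.91 on the null_EB arrays, 9.43-fold lower (log2 difference -3.24, SE 0.132, adjusted p = 3.6e-09), and Mir99a, its neighbour on chromosome 16, 5.54, 5.5 and 5.38 on the ESC arrays and 8.9, 8.6 and 8.54 on the null_EB arrays, 9.25-fold lower (log2 difference -3.21, SE 0.0965, adjusted p = 3.79e-10). Mir10b (4.11-fold) and Mir10a (2.76-fold), which lie within Hox clusters, Mir31 (3.04-fold), the smooth muscle pair Mir145a (2.9-fold) and Mir143 (2.08-fold), Mir29a (2.73-fold), Mirlet7e (2.39-fold), Mir100 (2.28-fold), Mir221 (2.14-fold) and Mir125b-1 (2.03-fold) were lower too. Of 32 somatic microRNA genes, 12 were at least 2-fold lower in ESC and 0 higher (median -0.6), and 21 were low in signal in both groups. Of the let-7 genes, Mirlet7a-1 (-0.08, SE 0.0687, adjusted p = 0.308) and Mirlet7i (-0.07, SE 0.0847, adjusted p = 0.477) were not called, although their mature forms carry the same seed. With the housekeeping scaling both were called lower in ESC (-0.34 and -0.33).

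**Figure D4:**
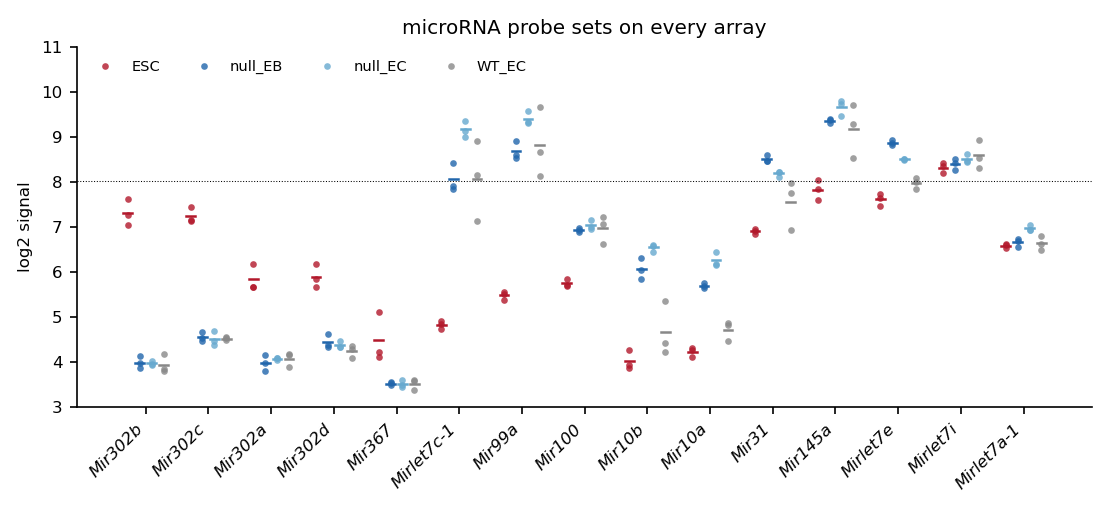
Log2 signal (vertical axis) of 15 microRNA probe sets on every array, with 3 points and a bar for the mean for ESC, null_EB, null_EC and WT_EC; the dotted line is the median signal of 8.02. The 5 genes of the miR-302 cluster are highest on the ESC arrays, and Mirlet7c-1 and Mir99a lowest there, while Mirlet7i and Mirlet7a-1 overlap.

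The Hox genes and mesodermal regulators that differed by 2-fold were mostly lower in ESC. The Hox genes give cells their address from head to tail. Of the 37 measured, 15 were at least 2-fold lower in ESC and 1 higher (median -0.65). Hoxa5 read 6.95, 7.22 and 7.67 on the ESC arrays and 9.61, 9.57 and 9.62 on the null_EB arrays, 5-fold lower, and Hoxa2 (5.46-fold), Hoxd4 (4.39-fold), Hoxa6 (4.09-fold), Hoxd8 (3.77-fold) and Hoxb4 (2.62-fold) were lower. The exception was Hoxc8, 2.62-fold higher in ESC (8.72 against 7.33). Hox list medians were 6.85 to 7.08 on the ESC arrays, 8.08 to 8.18 in null_EB, 8.18 to 8.28 in null_EC and 7.08 to 7.57 in WT_EC. Among 30 mesodermal and positional regulators 8 were lower and 1 higher. Gata6, a factor of endoderm and of heart and lung mesoderm, read 8.74, 8.41 and 8.41 on the ESC arrays and 12.5, 12.34 and 12.45 on the null_EB arrays, 15.1-fold lower (log2 difference -3.91, SE 0.0956, adjusted p = 8.67e-11). Meis2 (8.66-fold), Runx1 (6.83-fold) and Gata4 (3.95-fold) were lower as well. The neural and endodermal lists differed in both directions, and most of their members were low in signal: of 25 ectodermal genes 17 were low in both groups, 3 were higher and 4 lower, with Pax3 at 7.01 against 10.46 (10.9-fold lower), Neurod1 at 8.72 against 5.39 (10.1-fold higher) and Nes at 8.66 against 6.34 (4.99-fold higher). Of 22 endodermal and trophoblast genes 15 were low in both groups, 3 were higher and 4 lower, and Sox17 (6.62 against 6.69), of definitive endoderm, and Cdx2 (6.95 against 7.11), of trophectoderm, were not called.

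Several Nodal, TGF-beta and BMP signalling genes differed by pathway arm. Of the Nodal arm, the ligand Nodal (5.12-fold), its co-receptor Cripto named above and the feedback inhibitors Lefty1 (6.61-fold) and Lefty2 (8.37-fold) were higher in ESC. Of the TGF-beta and BMP arms, the receptors Tgfbr2 (4.3-fold) and Tgfbr3 (3.44-fold), the ligands Tgfb1 (3.35-fold) and Bmp4 (3.35-fold), the antagonist Grem1 (3.73-fold) and the target Id1 (2.13-fold) were lower. Tgfbr2 read 8.91, 8.79 and 9.0 on the ESC arrays and 11.14, 10.89 and 10.97 on the null_EB arrays, without overlap. Together 8 of 36 genes were higher and 11 lower. In FGF signalling, with 7 of 25 higher and 2 lower, the target Etv5 (5.53-fold) was higher beside Fgf4, while the ligand Fgf2 (3.38-fold) and the feedback phosphatase Dusp6 (2.41-fold) were lower. Of 43 Wnt genes 4 were higher and 4 lower, together 18.6%, near the 15.2% of all genes. The receptor Fzd1 (4.84-fold) was lower, the inhibitor Sfrp2 (9.43-fold), the nuclear factor Lef1 (4.94-fold) and the receptor Lgr4 (3.84-fold) were higher, and the target Lgr5 was low in both (6.57 against 6.48) and not called.

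Of 17 LIF signalling genes, 1 was at least 2-fold higher in ESC and 2 lower, or 0 and 5 with the housekeeping scaling. In the main fit that was 17.6%, near the 15.2% of all genes. The LIF receptor Lifr read 10.39, 10.35 and 10.29 on the ESC arrays and 9.52, 9.34 and 9.42 on the null_EB arrays, 1.89-fold higher in ESC (log2 difference 0.92, SE 0.0701, adjusted p = 5.9e-07), the inhibitor Socs3 was 1.64-fold higher, with a second probe set at -0.16 and not called, and the kinase Jak2 (2.26-fold) and the ligand gene Clcf1 (2.87-fold) were lower. In the IGF and growth factor list 6 of 36 were higher and 9 lower. The RNA-binding proteins Igf2bp3 (20.6-fold) and Igf2bp1 (5.29-fold), which bind Igf2 RNA, and Igfbp2 (15.1-fold) were higher, and the receptor Met (5.6-fold), the ligand Pdgfc (5.81-fold), Igfbp4 (5.06-fold) and Vegfa (4.29-fold) were lower. Around CD47, 2 of 24 genes were higher and 4 lower. The ligand gene Thbs1 read 13.04, 13.03 and 12.95 on the ESC arrays and 12.46, 12.25 and 12.33 on the null_EB arrays, 1.58-fold higher in ESC, its relative Thbs2 was 6.94-fold higher, and the targets of nitric oxide signalling Prkg1 (5.16-fold) and Gucy1a1 (3.91-fold), the receptor Lrp1 (2.68-fold) and the integrin chain Itgb3 (2.06-fold) were lower. Of 32 immediate early genes 6 were lower and 1 higher, with Dusp4 6.78-fold lower, Egr1 2.35-fold lower and Klf10 2.69-fold higher.

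Interferon response genes were mostly lower in ESC. The innate antiviral arm of embryonic stem cells is known to be weak, but its part in these values was not tested. Of 34 measured, 20 were at least 2-fold lower and 0 higher, with a median of -1.11. Oas2, a sensor of viral RNA, read 7.12, 7.13 and 7.86 on the ESC arrays and 10.48, 10.55 and 10.58 on the null_EB arrays, 8.98-fold lower (log2 difference -3.17, SE 0.163, adjusted p = 2.3e-08). Irf7, the factor that amplifies the response, read 7.25, 7.67 and 7.79 on the ESC arrays and 10.38, 10.27 and 10.15 on the null_EB arrays, 6.5-fold lower (log2 difference -2.70, SE 0.124, adjusted p = 9.19e-09), with the 3 ESC arrays over a wider range than the 3 null_EB arrays. Ifit3 (8.95-fold), Usp18 (7.12-fold) and Ifit1 (5.68-fold) were lower, whereas Irf1 (9.86 against 8.90) and Zbp1 (8.57 against 7.69) were higher in ESC by less than 2-fold, the former with a second probe set at -0.38 (limma adjusted p = 0.00367). The list's median level was 8.12 on ESC 1, 8.3 on ESC 2 and 8.68 on ESC 3, 9.84 to 9.96 on the null_EB arrays and 9.22 to 9.33 on the null_EC arrays. Antigen presentation differed less: of 15 genes 1 was lower at 2-fold, the chaperone Tapbp (2.53-fold), and B2m was 12.69 against 13.20. Among 35 cytokine and NF-kappaB genes 10 were lower and 2 higher, with the adhesion molecule Vcam1 (5.21-fold), the TNF receptors Tnfrsf1b (4.61-fold) and Tnfrsf1a (3.69-fold) and the chemokine Cxcl12 (3.68-fold) lower and Icam1 2.83-fold higher.

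Stress and catabolic genes were more often lower in ESC than higher. Of 39 genes of the unfolded protein and amino acid stress responses, 17 were lower in ESC and 3 higher (median -0.86). Their median level was 10.17 to 10.27 on the ESC arrays, 11.08 to 11.24 on the null_EB arrays and 11.25 to 11.41 on those of null_EC, which were grown in complete medium. The cystine importer Slc7a11 read 6.52, 6.29 and 6.3 on the ESC arrays and 10.94, 11.27 and 11.14 on the null_EB arrays, 26.9-fold lower (log2 difference -4.75, SE 0.0968, adjusted p = 2.5e-11), and it was 9.02 in null_EC. The stress factor CHOP (Ddit3) read 7.73, 7.99 and 7.91 on the ESC arrays and 10.59, 10.81 and 10.68 on the null_EB arrays, 7.04-fold lower (log2 difference -2.82, SE 0.0857, adjusted p = 4.11e-10), Chac1 was 7.8-fold lower and the sensor kinase Ern1 7.27-fold lower. Atf4, whose activity is set mainly at translation, was 1.71-fold lower. The 3 higher genes supply amino acids: the arginine transporter Slc7a3 (16.7-fold), Cth (5.16-fold) and Psat1 (2.33-fold). Of 34 NRF2 and glutathione genes 10 were lower and 2 higher, with the haem oxygenase Hmox1 (4.03-fold) and the transferases Gsta3 (6.5-fold) and Gstp1 (4.27-fold) lower, the last with near copies, and the peroxidases Gpx3 (14.8-fold) and Gpx2 (6.89-fold) higher. Autophagy and lysosome genes were lower in 7 of 43 cases at 2-fold and higher in 0 (median -0.7), or lower in 21 with the housekeeping scaling, among them the lysosomal glucosidase Gaa (4.72-fold) and the autophagy receptor Sqstm1 (2.86-fold). The median level of that list was 11.20 to 11.27 on the null_EB arrays and 11.19 to 11.22 on the null_EC arrays.

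Biosynthetic lists differed by smaller amounts. Of 40 Myc family and ribosome biogenesis genes 33 were called higher, 12 of them at 2-fold, and 2 were at least 2-fold lower, Myc and Mxd4 (2.05-fold). Ornithine decarboxylase (Odc1), a classical Myc target, was 3.45-fold higher in ESC (11.57 against 9.78), and the nucleolar genes Ncl and Npm1 were 1.4-fold and 1.45-fold higher. One-carbon metabolism was higher in 9 of 23 and lower in 1: the glycine decarboxylase Gldc, which feeds the one-carbon pool, read 10.73, 10.88 and 10.54 on the ESC arrays and 6.46, 6.48 and 6.5 on the null_EB arrays, 18.8-fold higher (log2 difference 4.23, SE 0.0853, adjusted p = 2.41e-11), and the glycine transporter Slc6a9 was 7.21-fold lower. Of 35 glycolysis and hypoxia genes 6 were higher and 2 lower (median 0.33, with the housekeeping scaling 0.07). The glucose transporter Slc2a3 read 13.26, 13.32 and 13.19 on the ESC arrays and 9.92, 9.71 and 9.64 on the null_EB arrays, 11.3-fold higher, and Ndrg1, a hypoxia target, was 3.43-fold lower beside Vegfa. Of 31 sterol and fatty acid synthesis genes 2 were higher, Elovl6 (6.12-fold) and Idi1 (3.1-fold), and 1 lower, Fads1 (2.7-fold), with a median of 0.28, or 0.03 with the housekeeping scaling. That was 9.7% of the list, below the 15.2% of all genes.

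Genes that differed between the embryoid bodies and the null_EC cells gave the change within the same genotype. The largest differences were taken among genes that passed an adjusted p under 0.05 in a limma fit of all 12 arrays. Since the same values chose them, the values below are a description. Kdr stood at 10.70 in null_EC, at 7.34 in null_EB and at 6.91 in ESC. The acute phase gene Saa3 was 11.12, 7.19 and 6.69 in the same order. Col12a1 (11.72, 8.61 and 10.77), the basement membrane protein gene Nid2 (11.72, 8.98 and 10.85) and the sialomucin Podxl (11.32, 8.42 and 10.57) had lower means in null_EB than in null_EC, with ESC between them. In the other direction, the RNA export factor Nxf3 went from 6.24 in null_EC to 9.32 in null_EB, with 5.36 in ESC, and the tetraspanin Cd53 from 7.62 to 10.02, with 7.07 in ESC. The prostaglandin synthase Ptgs2 was 10.33, 12.40 and 11.37. Cd80, the costimulatory ligand, had means of 8.76 in null_EB and 8.92 in ESC, uncalled (log2 difference 0.16, SE 0.131, adjusted p = 0.299, and -0.34 in a second probe set), above 6.41 in null_EC. Pou5f1, Nanog and Sox2 did not stand among these genes, with null_EB minus null_EC differences of -0.19, -0.26 and -0.10.

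Differences were not spread evenly over the genome. Chromosomes were taken from the RefSeq gene table by gene identifier, and 10992 genes with signal in at least 1 group were used. Their median difference was -0.017, and 49.1% were higher in ESC. On chromosome 19 the median was -0.379 and 29.2% of 383 genes were higher in ESC, on chromosome 17 it was -0.252 with 35.1% of 547, and on chromosome 6 -0.162 with 42.1% of 535. On the other 16 autosomes and X the medians ran from -0.059 to 0.162, the highest on chromosome 13, and the shares from 46.5% to 58.8%. The value of chromosome 19 was alike on each ESC array set against the null_EB mean, at -0.36, -0.349 and -0.397. Its sign, though not its size, was the same along the chromosome. When genes were split by their order into 10 bins of like size, the median was below 0 in 10 of 10 bins of chromosome 19, from -0.522 to -0.087, and in 9 of 10 bins of chromosomes 17 and 6. On chromosome 19, bins 1 to 5 ran from -0.522 to -0.415 and bins 6 to 10 from -0.366 to -0.087.

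The same chromosomes stood apart when the same null_EB arrays were set beside WT_EC. There the medians of null_EB minus WT_EC were 0.409 on chromosome 19, 0.373 on chromosome 17 and 0.239 on chromosome 6, against 0.039 to 0.128 on the other chromosomes. All 10 bins were above 0 on each of these 3, as they were on chromosomes 1, 2, 5, 7 and 10. The medians of null_EC minus WT_EC were 0.359, 0.273 and 0.178, against 0.052 to 0.115 elsewhere. For ESC minus WT_EC they were -0.005, 0.125 and 0.05, against 0.072 to 0.28. These sets share arrays and are given side by side as descriptions without a test. No karyotype is labelled for any group. Of 675 genes on chromosome 19, 84 were at least 2-fold lower in ESC and 35 higher, and of 936 on chromosome 17, 85 and 60. With the genes of both chromosomes left out of the results of the same fit, 2761 were at least 2-fold different, against 3025 with them. That is a count and not a test of the part of these chromosomes. Tapbp and several antigen presentation genes lie on chromosome 17.

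**Figure D5:**
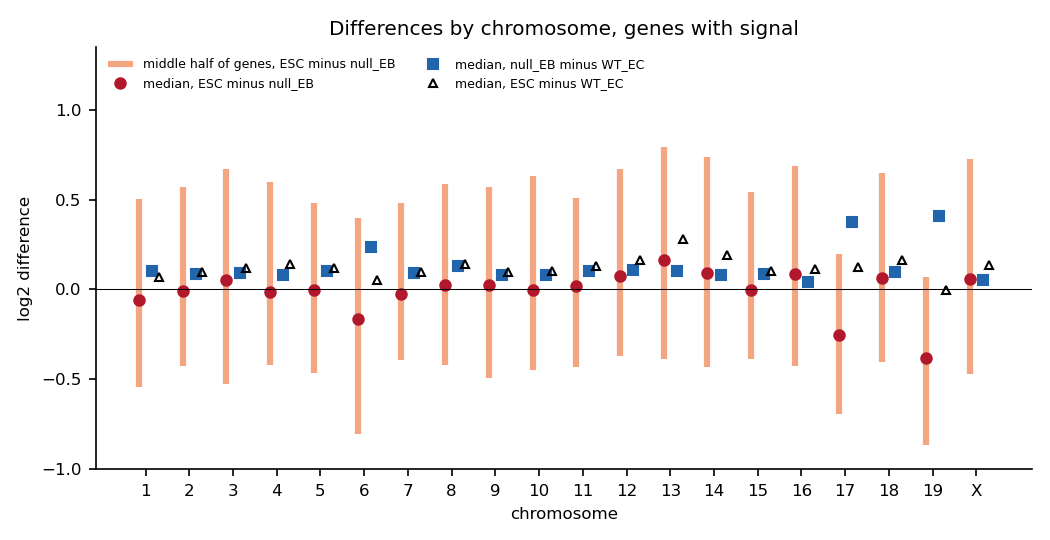
Log2 differences (vertical axis) of genes with signal by chromosome (horizontal axis). Red points are medians of ESC minus null_EB with bars from the lower to the upper quartile of genes, blue squares medians of null_EB minus WT_EC, and open triangles medians of ESC minus WT_EC; chromosomes 19, 17 and 6 have the lowest red points and the highest blue squares.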

How the data were processed

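RNA of 12 samples, 3 in each of 4 groups, was labelled from 300 ng total RNA and hybridised to Affymetrix arrays. The labels' protocol names a human array, while the deposited probe sets carry mouse genes. The deposited values are log2 signals that the authors made with Affymetrix Expression Console 1.2.1 and RMA, per the submitters' processing notes, and no columns were left unused. Genes came from GEO's platform annotation: of 35556 probe sets, 21789 had 1 gene symbol, 1621 several and 12146 none, and the brightest probe set by the mean over 12 arrays stood for each of 999 genes with several. No genes were filtered out. The 6 ESC and null_EB arrays were fitted alone with limma 3.58.1 (R 4.3.3, lmFit and eBayes), with Benjamini-Hochberg adjustment over 19938 genes and a threshold of 0.05. On simulated data for ESC against null_EB over 19938 genes the fit recovered 98.2% of genes changed by 2-fold and 99.8% of those changed by 4-fold. At most 14 unchanged genes were called there, a figure that holds for the simulated arrays only. It cannot be carried over to the measured arrays, where housekeeping scaling alone raised the calls from 12306 to 16309. Chromosomes came from RefSeq for 19856 genes, sequences from RefSeq tables of GRCm38.p6.

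The members, the 49 gene lists and the rule for named genes were chosen with earlier results of these data known. The rule takes the 6 genes Cd47, Myc, Pou5f1, Sox2, Klf4 and Nanog, the 15 largest increases and decreases without overlap of the groups (other than small RNAs, clone names and chemosensory receptors), key members of each list and up to 4 called members each way, all microRNA genes of the lists, and the 8 largest differences each way between null_EB and null_EC. Those 8 each way were taken among genes that passed an adjusted p under 0.05 in a limma fit of all 12 arrays. Zfp296 is named for its promoter match, after its values were seen. A gene measured by several probe sets is named from the brightest. Alternatives were all 12 arrays in 1 model, a variance trend with robust estimation, array weights, a replicate block, housekeeping scaling, a filter at a log2 signal of 6 on 3 arrays, other choices of probe set, and each array left out in turn. Leaving out chromosomes 17 and 19 was added after the data were seen. The number of arrays limits the precision of every value.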

Additional observations from a re-analysis of the deposited data

How the results depend on the processing

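Housekeeping scaling changed the balance most: 3703 genes were called higher in ESC with it and 12606 lower, against 5597 and 6709. The counts of calls were otherwise 8929 with all 12 arrays in 1 model, 12237 with a variance trend, 15334 with array weights and 11597 of 16962 genes after the filter. Without 1 array they ran from 10768 to 12508 for all calls, 5174 to 5514 higher, 5594 to 7027 lower, 3020 to 3075 at 2-fold and 844 to 867 at 4-fold. List members at 2-fold ran from 570 to 579 of a main 576, and the chromosome 19 median relative to all genes from -0.362 to -0.348. Without chromosomes 17 and 19, 11252 genes were called, 2761 at 2-fold and 801 at 4-fold. The labels do not say whether replicate numbers pair the samples. Deviations of same-numbered arrays correlated at 0.06, 0.168 and -0.138, and ESC 3 correlated best with null_EB 1, at 0.221. Deviations from a mean of 3 arrays are tied to each other, so these values cannot decide the pairing. With the replicate number as a block, 12178 genes were called, 11952 of them shared, and 3025 at 2-fold. Of 267 named genes 4 changed sign: Cd47 to -0.02 with housekeeping scaling, to -0.02 with the mean of its probe sets and to -0.28 in its other probe set, Irf1 to -0.38, Cd80 to -0.34 and Socs3 to -0.16 in other probe sets. With all 12 arrays 9 named genes lost their call, among them Bmp4 and Irf1. Housekeeping scaling removed the calls of Cdkn2a and Klf2, besides that of Cd47. It also gave 11 named genes a call that they lacked in the main fit, all lower in ESC. These were Col1a1, Acta2, Cdh5, Esam, Mdm2, Sox17, Cdx2, Cd68, Ptprc, Mirlet7a-1 and Mirlet7i. Without null_EB 1 Klf4 fell under 2-fold, so that the naive factors had 0 lower, and without ESC 3 LIF genes had 0 higher and cytokine genes 1. The cause of these shifts was not tested. No depth or background signal was used, so low signals have no detection limit.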

Other observations

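Families outside the lists, chosen after their values were seen, also differed. Of 20 nucleoporin genes, which build the nuclear pore, 13 were at least 2-fold higher in ESC and 0 lower, with a median of 1.19 (0.94 with housekeeping scaling). Nup210, a pore membrane protein, read 9.89, 10.03 and 9.97 in ESC and 7.11, 7.24 and 7.28 in null_EB, 6.76-fold higher, and Nup107 was 3.92-fold higher. Of 22 clustered protocadherin beta genes, cell adhesion receptors best known from neurons, 8 were at least 2-fold lower in ESC and 0 higher, with a median of -0.45 (-0.7 with housekeeping scaling). Pcdhb16 read 6.05, 5.91 and 5.96 in ESC and 9.7, 9.59 and 9.43 in null_EB, 12.1-fold lower, and its null_EC mean was 9.88. Near copies in this cluster may share probes. Of 48 mitochondrial large ribosomal subunit genes 31 were called higher, 5 of them at 2-fold, and 3 lower. Over all genes 28.1% were called higher, 8.7% at 2-fold, and 33.6% lower.

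Some transcripts without an established function stood with the stem cell genes. C330024D21Rik was 32.3-fold higher in ESC (11.22 against 6.21), AU018091 18-fold (11.29 against 7.12) and Gm6083 30.6-fold (8.99 against 4.05). Of 1027 olfactory receptor genes, which neither cell type is known to use, 6 were called higher and 374 lower, 4 and 3 of them at 2-fold, with a median of -0.18. Over all genes 28.1% were called higher and 33.6% lower. Olfr1033 had a mean of 4.87 in ESC, 7.47 in null_EB and 9.13 in null_EC.

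Probe sets without a single gene symbol were tested apart. Of 1621 with several symbols 754 were called, 132 at least 2-fold higher in ESC and 93 lower, and of 12146 with none 4882 were called, 279 at least 2-fold higher and 911 lower.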
